A study of Caenorhabditis elegans with 4 samples.

Results

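The ttr genes of the nematode Caenorhabditis elegans encode transthyretin-like proteins. They were chosen here by symbol alone, as the genes whose name starts with ttr- followed by a digit and that have a probe set assigned to 1 gene. The rule found 40 of the 17118 genes so assigned, read by 41 of the array's 22625 probe sets. The RefSeq gene table lists 59 ttr genes. Of the other 19, which are not analysed here, 6 appear only on 3 probe sets assigned to several ttr genes and 13 have no probe set assigned in the platform table. The arrays measured transcripts, so secretion of the proteins was not examined.

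Transthyretin-like proteins form a large family found in nematodes, with small and mostly secreted members. Their fold is related to that of transthyretin, the vertebrate carrier of thyroid hormone and of retinol-binding protein. In C. elegans, TTR-52 bridges dying cells and the cells that engulf them, by binding phosphatidylserine on the corpse and the receptor CED-1 on the engulfing cell. TTR-33 protects dopaminergic neurons against oxidative damage, and TTR-11 also binds phosphatidylserine. The genes ttr-33 and ttr-11 are among the 13 with no probe set assigned.

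All groups were wildtype young adult hermaphrodites, 3 days old, raised on bacteria. The BPA group was exposed to bisphenol A for 24 h, the DEHP group to diethylhexyl phthalate for 24 h and the NP group to NP, read here as nonylphenol, for 24 h. Doses were 1/100 of the LC50 of each chemical, the median lethal concentration, so molar doses were not matched, and exposed worms were kept at 20 °C in a salt medium without food. The control group is labelled untreated, with no exposure time and no statement on feeding, so exposure, fasting and holding in medium cannot be told apart in any comparison with it. The question was which transcripts differ after exposure to these plasticiser and surfactant chemicals. Each group had 1 array of total RNA from worms, so there was no replicate, no test and no replicate check, and every value describes these 4 arrays.

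Intensities were scaled to a common median of the 4 arrays. A gene was called measured if its mean over all 4 arrays reached 128.8, the pooled median, which 8439 genes and 30 of the 40 ttr genes did. Changes are log2 ratios relative to the median measured gene, which itself stood 0.013 over the control with BPA, 0.161 with DEHP and 0.385 with NP. The 3-prime to 5-prime ratio of the actin control probe sets was 1.22 for BPA, 1.37 for DEHP, 1.88 for NP and 1.19 for the control. For catalase it was 1.44, 1.82, 3.38 and 1.63 in the same order. The NP array was also highest for Gapdh (1.19, against 0.83 for BPA, 0.93 for DEHP and 0.95 for the control). For ubiquitin all exposed arrays exceeded the control, with 8.28 for BPA, 8.01 for DEHP and 8.98 for NP, against 6.66. Ratios of the control gly14, whose lowest reading was 1.15, are not given. In place of replicate error, 1999 genes with several measured probe sets give a scale of measurement within the arrays. The changes read by probe sets of the same gene differed by a median of 0.24 log2 for BPA over control, 0.24 for DEHP over control and 0.4 for NP over control. In 90% of genes they differed by less than 0.65, 0.64 and 0.97 for these comparisons in turn. Spread between worms or arrays is not part of these figures. Of the 40 ttr genes, 39 had a single probe set and so no such check.

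Of the 30 measured ttr genes, 23 stayed within 2-fold over the 4 arrays. The gap between a gene's highest and lowest array, relative to the median gene, had a median of 0.64 log2 over the 30 measured ttr genes and of 0.56 over all 8439 measured genes. In 11 ttr genes (ttr-1, ttr-2, ttr-15, ttr-17, ttr-25, ttr-26, ttr-35, ttr-37, ttr-47, ttr-50 and ttr-53) it was under 0.5. The same held for 3607 of all 8439 measured genes, so a narrow gap is not particular to the family. In 7 it reached 2-fold, 23.3% of the measured ttr genes, against 17.5% of all measured genes. The narrowest gap was that of ttr-1, at 0.21.

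The 5 ttr probe sets with the highest mean intensity belonged to ttr-15, ttr-2, ttr-16, ttr-51 and ttr-46. For ttr-15 the intensity was 10789 with BPA, 10565 with DEHP and 14900 with NP, against 10951 for the control. That of ttr-2 was 7693 for BPA, 7470 for DEHP, 12006 for NP and 7642 for the control. In both, the NP array was high and the other 3 arrays lay close together, and relative to the median gene the NP changes were 0.06 and 0.27.

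The gene ttr-51 gave 8011 with BPA, 6872 with DEHP and 11935 with NP, against 7691 for the control. For ttr-46 the readings were 3095 with BPA, 2883 with DEHP and 4935 with NP, against 3453 for the control. In both, NP was the highest array and DEHP the lowest. For ttr-16, where DEHP was highest and NP lowest, the intensity was 8762 with BPA, 10020 with DEHP and 7092 with NP, against 8160 for the control, and its NP change of -0.59 was the farthest from 0 among these 5 genes. The probe sets of ttr-15, ttr-18, ttr-24, ttr-44, ttr-50 and ttr-51 are of the _s_ type, whose probes can match several transcripts, and their values are uncertain as to the member.

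**Figure D1:**
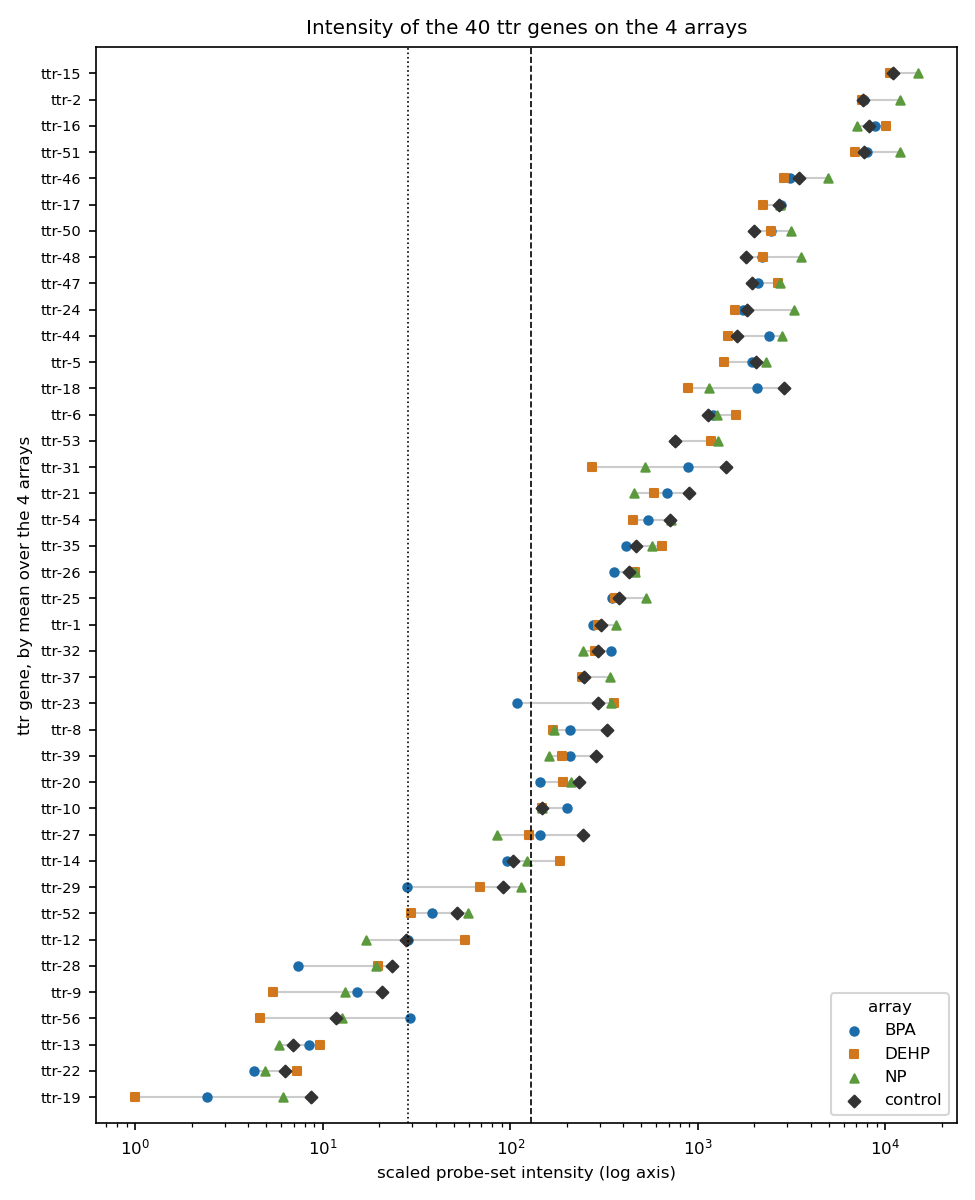
Scaled probe-set intensity (log axis) of the 40 ttr genes, 1 row per gene, with a marker for the BPA, DEHP, NP and control arrays and a line joining the lowest and highest. The dotted line is the floor (28.3) and the dashed line the pooled median (128.8). Different probe sets are not comparable in level, so only markers within a row may be compared, and wide rows include ttr-31, ttr-18, ttr-23 and ttr-27.

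A small group of ttr transcripts was lower in DEHP-exposed and NP-exposed worms than in the control. On the DEHP array 4 of 30 measured ttr genes (13.3%) were at least 2-fold lower, against 4.42% of all measured genes, and 0 were 2-fold higher, against 2.33%. On the NP array 6 of 30 (20%) were at least 2-fold lower, against 7.3% of all measured genes, and 0 were higher, against 1.47%. With 30 genes, 0 higher is close to the shares of 2.33% and 1.47% over all genes and says little about the family. Both counts of lower genes include ttr-27, which counts as measured only through its control reading, as set out below. These counts have no test. The NP array also had the highest actin and catalase ratios given above, and their part in the NP count was not tested. Both comparisons used the same control array. When changes are not taken relative to the median gene, the numbers lower are 2 for DEHP and 3 for NP. The shares of 4.42% and 7.3% are for changes relative to the median gene, so these numbers cannot be set against them. In RNA from whole worms, fewer cells of a type and less RNA per cell cannot be told apart.

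The gene with the lowest change was ttr-31, whose intensity was 890 with BPA, 274 with DEHP and 522 with NP, against 1409 for the control. All exposed arrays were below the control and DEHP was the lowest. The relative log2 change was -2.52 for DEHP, -1.82 for NP and -0.68 for BPA. Counted from the lowest, the DEHP change stood at position 18 of the 8439 measured genes and the NP change at position 69.

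The transcript of ttr-18, read by an _s_ probe set, had an intensity of 2056 with BPA, 886 with DEHP and 1149 with NP, against 2878 for the control. Its relative change was -1.86 for DEHP, -1.71 for NP and -0.5 for BPA. As for ttr-31, the DEHP and NP arrays lay well below the other 2 and BPA lay between them and the control. It stood at position 51 from the lowest for DEHP and 97 for NP.

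Readings of ttr-27 were 144 with BPA, 125 with DEHP and 84.7 with NP, against 245 for the control. Its relative change was -1.92 for NP, the lowest of any ttr gene on that array, -1.14 for DEHP and -0.79 for BPA. The DEHP and NP readings lie under the pooled median of intensities, where the size of a change is less certain. It counts as measured only through its control reading, the highest of the 4. With the level taken over the 3 exposed arrays alone, a setting added once the data had been seen, ttr-27 is left out and ttr-14 comes in. Of the 30 ttr genes of that setting 1 was lower with BPA, against 0.724% of all genes. With DEHP 3 were lower, against 4.03%, and with NP 5, against 6.87%. For ttr-8 the intensity was 209 with BPA, 169 with DEHP and 171 with NP, against 326 for the control, with changes of -0.65, -1.11 and -1.32 in that order. In both genes every exposed array was below the control, and the DEHP changes miss 2-fold (-0.98 and -0.95) when they are not taken relative to the median gene.

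The remaining 2 genes passed 2-fold on the NP array but not on the DEHP array. For ttr-21 the intensity was 681 with BPA, 583 with DEHP and 457 with NP, against 893 for the control, and its relative change was -1.35 for NP, -0.78 for DEHP and -0.4 for BPA. For ttr-39 it was 209 with BPA, 188 with DEHP and 161 with NP, against 286 for the control, with changes of -1.22 for NP, -0.76 for DEHP and -0.47 for BPA. The arrays had the same order in both, NP lowest and the control highest. The NP call of ttr-39 was lost after quantile (-0.95) and loess (-0.97) normalization. Not taken relative to the median gene, the NP changes of ttr-8, ttr-21 and ttr-39 were -0.93, -0.97 and -0.83.

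**Figure D2:**
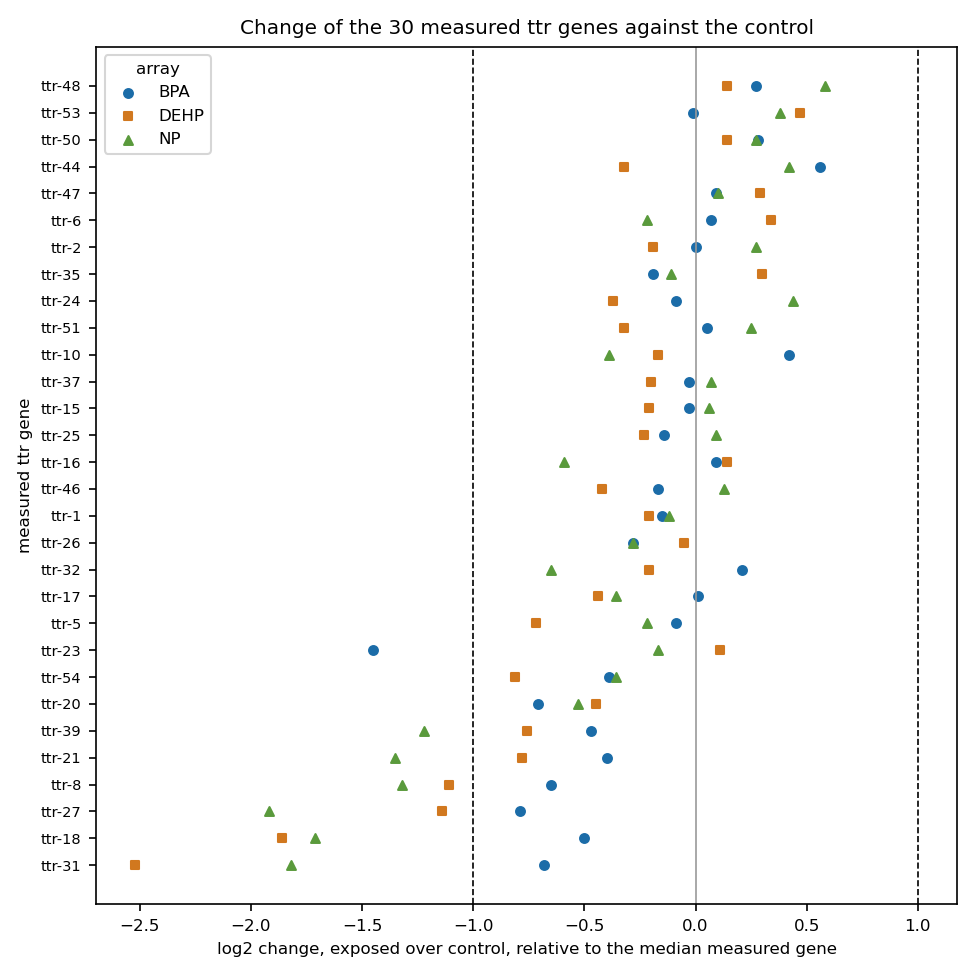
Log2 change of each of the 30 measured ttr genes (rows) on the BPA, DEHP and NP arrays against the control, relative to the median measured gene, with dashed lines at 2-fold. All markers past 2-fold lie on the lower side, DEHP and NP markers for ttr-31, ttr-18, ttr-27 and ttr-8, NP alone for ttr-21 and ttr-39, and BPA alone for ttr-23.

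Worms exposed to BPA differed from the control in a single measured ttr gene past 2-fold. The intensity of ttr-23 was 109 with BPA, 356 with DEHP and 343 with NP, against 295 for the control. The BPA reading stood apart from the other 3, which lay close together. Its relative change was -1.45 with BPA, 0.11 with DEHP and -0.17 with NP, and the BPA value stood at position 15 from the lowest of all measured genes. This 1 gene of 30 (3.33%) compares with 0.877% of all measured genes at least 2-fold lower on the BPA array, and 0 of 30 were higher, against 1.13%. With 30 genes, these counts say little about the family. The BPA reading lies under the pooled median of intensities. The other genes among the lowest 4 for BPA were ttr-27, ttr-31 and ttr-20. For ttr-20 the intensity was 143 with BPA, 190 with DEHP and 210 with NP, against 231 for the control, and its BPA change was -0.71.

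Genes at the upper end of the family stood less than 2-fold above the control. For ttr-44 the intensity was 2397 with BPA, 1449 with DEHP and 2819 with NP, against 1614 for the control. Its changes of 0.56 for BPA and 0.42 for NP stood opposite to -0.32 for DEHP. The gene ttr-48 read 2198 with BPA, 2224 with DEHP and 3526 with NP, against 1808 for the control, and was above the control on all 3 exposed arrays, with 0.27, 0.14 and 0.58 in that order. For ttr-53 the intensity was 755 with BPA, 1173 with DEHP and 1285 with NP, against 756 for the control, so that DEHP (0.47) and NP (0.38) were high and BPA (-0.01) was level with the control.

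Smaller upper values followed in other members. For ttr-10 the intensity was 200 with BPA, 147 with DEHP and 148 with NP, against 148 for the control, and its BPA change was 0.42, with the other 3 arrays at nearly the same reading. For ttr-50 it was 2443 with BPA, 2455 with DEHP and 3152 with NP, against 1998 for the control, and its changes lay between 0.14 and 0.28. The changes of all 5 of these genes lie under the 90% limits for probe sets of the same gene given above.

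On the DEHP array the next highest genes were ttr-6, ttr-35 and ttr-47. For ttr-6 the intensity was 1202 with BPA, 1598 with DEHP and 1265 with NP, against 1132 for the control, and its DEHP change was 0.34. For ttr-35 it was 414 with BPA, 644 with DEHP and 566 with NP, against 467 for the control, with a DEHP change of 0.3. For ttr-47 it was 2095 with BPA, 2665 with DEHP and 2725 with NP, against 1948 for the control, with a DEHP change of 0.29. DEHP had the highest reading in the first pair, and DEHP and NP were close together in ttr-47. Beside ttr-24, which has 2 probe sets, 8 measured ttr genes were left (ttr-1, ttr-5, ttr-17, ttr-25, ttr-26, ttr-32, ttr-37 and ttr-54), and these 8 had changes between -0.81, for ttr-54 with DEHP, and 0.21, for ttr-32 with BPA.

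The only member read by more than 1 assigned probe set showed how far readings of the same gene can part. On its brighter probe set, of the _s_ type, ttr-24 had an intensity of 1730 with BPA, 1583 with DEHP and 3241 with NP, against 1826 for the control, and an NP change of 0.44. The other probe set read 1125 with BPA, 952 with DEHP and 1344 with NP, against 1396 for the control, an NP change of -0.44. The NP change thus had opposite signs on the 2 probe sets. For DEHP both were negative, at -0.37 and -0.71.

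Over the 30 measured ttr genes the median change was -0.091 with BPA, -0.223 with DEHP and -0.191 with NP, where the median over all measured genes is 0 by construction. Below 0 lay 20 of 30 with BPA, 22 with DEHP and 18 with NP. The NP median was 0.194 when changes are not taken relative to the median gene, so its direction rests on that step. The interquartile range of the ttr genes ran from -0.4 to 0.07 for BPA, against -0.2 to 0.2 for all measured genes. For DEHP it ran from -0.65 to 0.07, against -0.27 to 0.23, and for NP from -0.57 to 0.12, against -0.4 to 0.3. The NP spread of the family was thus close to that of all genes, with 66.7% of ttr genes and 66.6% of all genes within 0.5 log2 of the median gene.

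The ttr genes were also counted by level, set by their mean over all 4 arrays, the control included. At or above the pooled 75th percentile (612.6), by mean over the 4 arrays, lay 17 ttr genes, of which 2 were lower for DEHP and 3 for NP. Of these, ttr-31 (mean 650.9) and ttr-21 (634.2) lay just above that level, with control readings of 1409 and 893. Their DEHP and NP readings were under it, and they reach this level only through the control array they are set against. The counts of 2 and 3 thus depend on the control reading. The other gene lower at this level, for both DEHP and NP, was ttr-18. Among all 4384 genes of that level the shares lower were 2.01% for DEHP and 3.7% for NP. Of the 13 dimmer measured ttr genes, 2 were lower for DEHP and 3 for NP, where 7.03% and 11.2% of all 4055 genes of that level were. Both of these counts include ttr-27, measured only through its control reading.

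**Figure D3:**
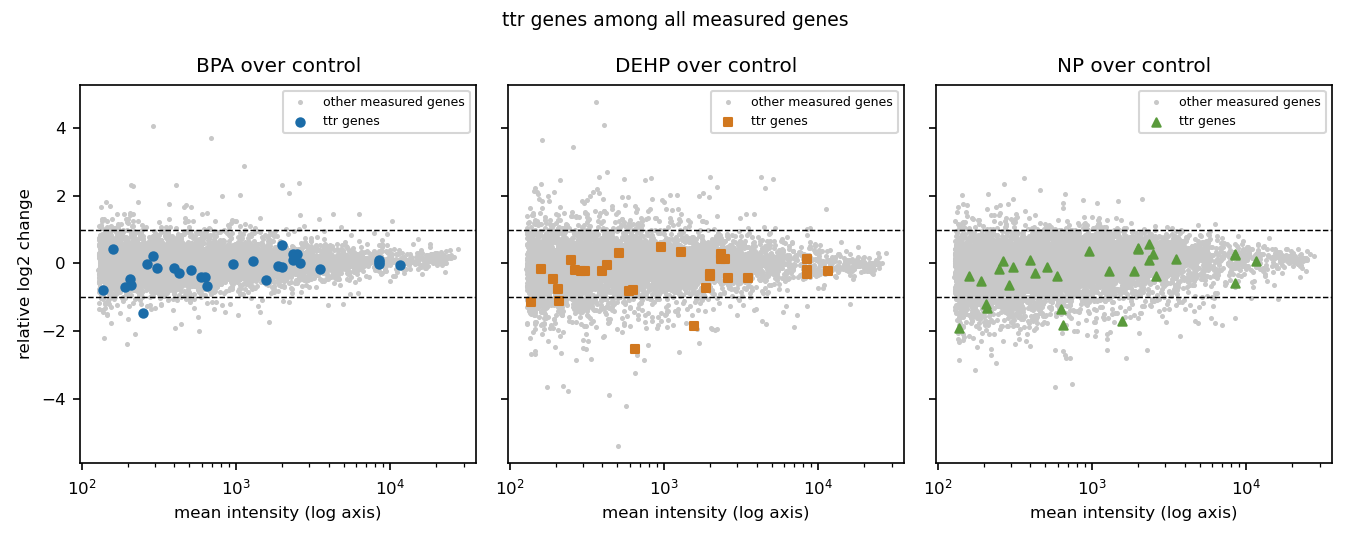
Relative log2 change against the control (y axis) by mean intensity over the 4 arrays (x axis, log), for all 8439 measured genes in grey and the 30 measured ttr genes in colour, with 1 panel each for BPA, DEHP and NP and dashed lines at 2-fold. The coloured points lie within the grey cloud and pass only the lower line.

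The ttr genes are short. By gene span, the length of a gene with its introns, the measured ones covered 549 to 1657 bases with a median of 1001, against a median of 2582 bases over all measured genes. Among the 2449 measured genes no longer than the longest of them, 1.47% were at least 2-fold lower for BPA, 5.96% for DEHP and 5.96% for NP. After a correction for the trend of the change with span, which was added once the data had been seen, 1, 4 and 6 ttr genes were lower for BPA, DEHP and NP in turn. With that correction the median NP change of the ttr genes was -0.38, and the genes 2-fold apart numbered 6 for BPA over NP and 2 for DEHP over NP, where 4 and 0 are given without it in what follows.

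Set against each other, the exposed arrays differed by 2-fold in 4 ttr genes. Between BPA and DEHP, 2 of 30 ttr genes were at least 2-fold higher for BPA, against 2.26% of all measured genes, and 1 was lower, against 1.64%. The higher genes were ttr-31 (1.83) and ttr-18 (1.34), and the lower one was ttr-23 (-1.58). Between BPA and NP, 3 were higher for BPA, against 5.62% of all measured genes, and 1 was lower, against 1.78%. The higher genes were ttr-18 (1.18), ttr-31 (1.11) and ttr-27 (1.1), and the lower one was again ttr-23 (-1.32). Of these, ttr-27 counts as measured only through its control reading. These values use the intensities given above and both comparisons share the BPA array. Not taken relative to the median gene, 0 were higher for BPA than for NP, with ttr-18 at 0.84, ttr-31 at 0.77 and ttr-27 at 0.76. The shares of all genes given above do not apply to that count.

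Between DEHP and NP, 0 ttr genes were 2-fold higher for DEHP, against 4.56% of all measured genes, and 0 were lower, against 1.52%. The values ran from -0.8 for ttr-24, on its _s_ probe set, to 0.79 for ttr-27. The other probe set of ttr-24 read -0.27. The genes with low DEHP and NP readings sat on different sides here, with ttr-31 at -0.7, ttr-18 at -0.14, ttr-8 at 0.22 and ttr-27 at 0.79. As doses were set by lethality and not matched in molarity, the values of the phenols BPA and NP and of the phthalate diester DEHP stand side by side and are not a comparison at matched dose.

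**Figure D4:**
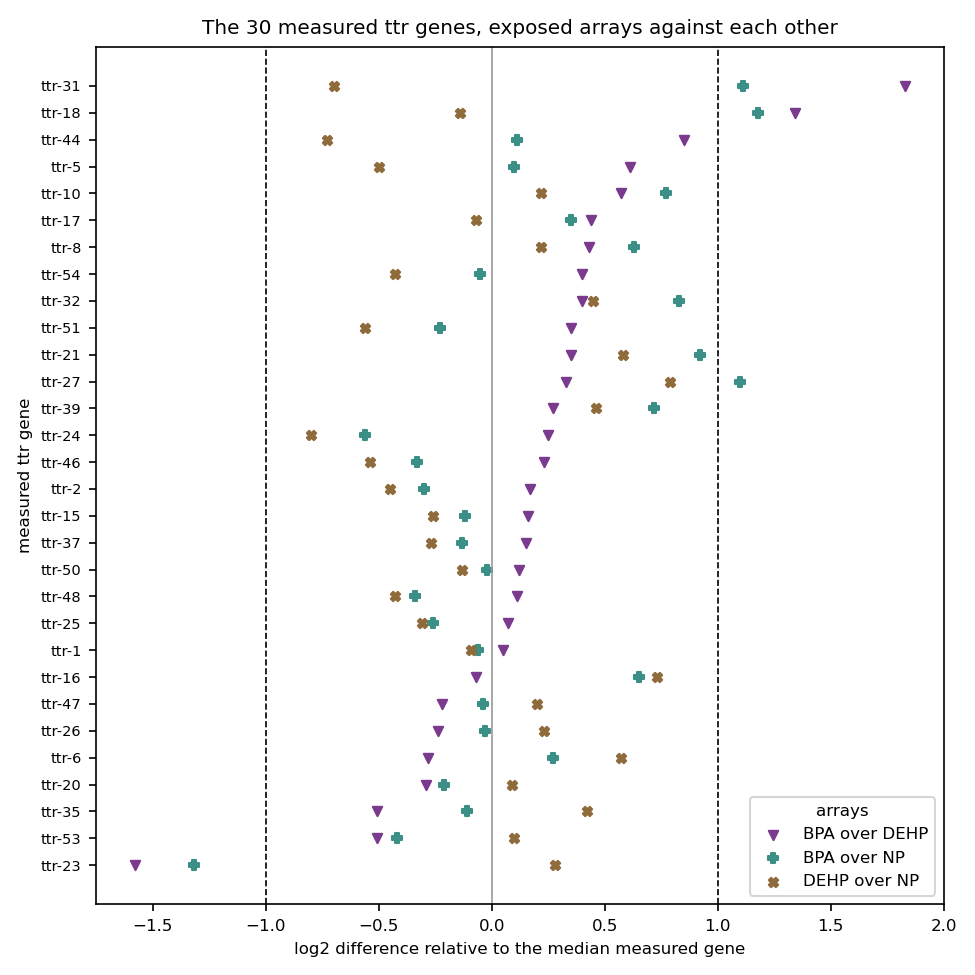
Log2 difference between exposed arrays for the 30 measured ttr genes (rows), relative to the median measured gene, for BPA over DEHP, BPA over NP and DEHP over NP, with dashed lines at 2-fold. The markers for ttr-31 and ttr-18 lie right of 2-fold for BPA over DEHP and BPA over NP, ttr-23 lies left of it for both, and all DEHP over NP markers lie between -0.8 and 0.79.

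Several ttr genes are direct neighbours in the WBcel235 gene table, with no other protein-coding gene between them. The run of ttr-24, ttr-25 and ttr-26 had NP changes of 0.44, 0.09 and -0.28 and DEHP changes of -0.37, -0.23 and -0.05, all under 2-fold. The values of ttr-24 are those of its _s_ probe set, and its other probe set read -0.44 for NP and -0.71 for DEHP. In the pair of ttr-8 and ttr-32, the DEHP changes were -1.11 and -0.21 and the NP changes -1.32 and -0.65, with only the first gene past 2-fold. The pair of ttr-53 and ttr-54 parted by sign for DEHP (0.47 and -0.81) and for NP (0.38 and -0.36). In the pair of ttr-16 and ttr-17 the NP changes were -0.59 and -0.36, and in ttr-1 and ttr-2, which follow ttr-3, they were -0.12 and 0.27. The gene ttr-27 stands beside ttr-28 and ttr-29, neither of which was measured.

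The measured ttr genes lie on chromosome V (10), IV (8), III (6), X (5) and II (1). The 6 genes lower on the NP array were spread over all 5 of these, with 2 on V and 1 on each of the others. The 4 lower on the DEHP array lay on II, III, V and X, 1 on each.

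The 10 ttr genes that were not measured comprised ttr-9, ttr-12, ttr-13, ttr-14, ttr-19, ttr-22, ttr-28, ttr-29, ttr-52 and ttr-56. For the corpse-binding gene ttr-52 the intensity was 38 with BPA, 29.5 with DEHP and 59.5 with NP, against 52.1 for the control. Its mean over the 4 arrays, 43.2, was under the pooled median, so no change is given. For ttr-14 the intensity was 95.8 with BPA, 184 with DEHP and 123 with NP, against 103 for the control, and DEHP was the only array above the pooled median. For ttr-29 it was 28.2 with BPA, 69 with DEHP and 114 with NP, against 91.2 for the control, with the BPA reading just under the floor. The genes ttr-9, ttr-13, ttr-19, ttr-22 and ttr-28 were under the floor on all 4 arrays. The highest reading of ttr-12 was 57.1, for DEHP, and that of ttr-56 was 29.1, for BPA.

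The engulfment pathway in which TTR-52 acts was represented by 14 listed genes, of which 13 were measured. On each exposed array 0 of the 13 were at least 2-fold from the control in either direction, where 2% of all measured genes were with BPA, 6.75% with DEHP and 8.77% with NP. With 13 genes, 0 is not far from these shares and says little about the pathway. Their median change was -0.13 with BPA, 0.09 with DEHP and -0.11 with NP. Transcripts of the receptor gene ced-1, whose product binds TTR-52, had an intensity of 376 with BPA, 473 with DEHP and 614 with NP, against 528 for the control, and changes of -0.5, -0.32 and -0.17. The value farthest from 0 was that of tat-1, which encodes a lipid translocase that keeps phosphatidylserine on the inner side of the membrane, at -0.91 for BPA with an intensity of 247 against 460 in the control. The gene nrf-5, which encodes a secreted lipid-binding protein of the same pathway, had changes of -0.22, -0.47 and -0.39.

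Of 7 listed genes of dopaminergic neurons, the cells that TTR-33 protects, 1 was measured. It was bas-1, which encodes an aromatic amino acid decarboxylase of dopamine and serotonin synthesis, with an intensity of 239 with BPA, 320 with DEHP and 167 with NP, against 287 for the control. Its NP change was -1.17, its BPA change was -0.27, and DEHP was level with the control. The tyrosine hydroxylase gene cat-2 was under the floor on all 4 arrays. Transthyretin-related genes outside the ttr symbols, which belong to the hydroxyisourate hydrolases, enzymes of urate breakdown, were R09H10.3 and ZK697.8. For R09H10.3 the intensity was 1246 with BPA, 1811 with DEHP and 1505 with NP, against 1335 for the control, with changes of -0.11, 0.28 and -0.21, and ZK697.8 was not measured.

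Markers of several tissues were also lower on the DEHP and NP arrays, and their part in the ttr values was not tested. Of all measured genes, 4.42% were at least 2-fold lower for DEHP and 7.3% for NP. Of 6 neuronal markers 3 were at least 2-fold lower for DEHP and 3 for NP, with medians of -0.24 with BPA, -0.89 with DEHP and -0.95 with NP. Of 6 markers of body wall muscle, 2 were lower for DEHP and 3 for NP, with medians of -0.29, -0.63 and -0.96. Of 5 measured intestinal markers 1 was lower for DEHP and 2 for NP, with medians of 0.11, -0.33 and -0.76. The intensities of neuronal markers summed to 5778 with BPA, 5151 with DEHP and 7030 with NP, against 6125 for the control. Those of muscle summed to 22421, 21979 and 20493, against 26087, and those of intestine to 17250, 16630 and 21024, against 17931. These sums are not taken relative to the median gene, add probe sets not comparable in level, and follow the brightest of them. With NP, snb-1 gave 4787 of the neuronal sum and vit-2 gave 15498 of the intestinal sum. Their NP changes, 0.26 and 0.43, were the only ones above 0 in their lists. None of these markers was at the floor on any array.

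Of the measured germline, hypodermal and sperm markers 0 were 2-fold lower on any exposed array. Of all measured genes 0.877% were lower for BPA, 4.42% for DEHP and 7.3% for NP. With so few markers, 0 is not far from these shares and says little about these tissues. Markers 2-fold higher were seen only with DEHP, where 2.33% of all measured genes were higher. The 6 germline and oocyte markers had medians of 0.16 with BPA, 0.21 with DEHP and 0.09 with NP, without a 2-fold member, and sums of 27687, 30439 and 32546, against 23718. The 4 measured hypodermal markers of 6 had medians of 0.6, 0.44 and -0.21, with the cuticle collagen gene dpy-7 at 1.02 for DEHP, and the 6 summed to 44326, 45172 and 34407, against 30055. Of 4 sperm markers with a probe set 1 was measured, the major sperm protein gene msp-3, at 1.79 for DEHP. The sperm markers summed to 309, 1007 and 306, against 318, and spe-11 was under the floor on all 4 arrays. The limits given above for sums hold for these lists too.

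**Figure D5:**
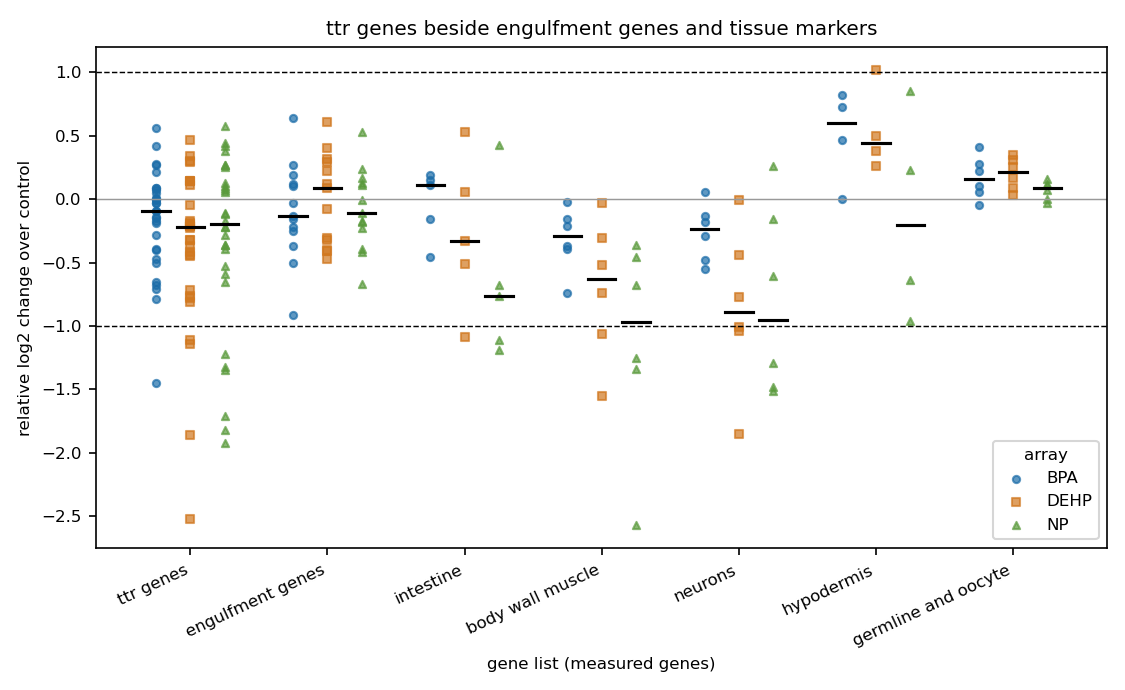
Relative log2 change against the control of each measured gene of 7 lists, with the BPA, DEHP and NP arrays side by side in each list, a black bar at each median and dashed lines at 2-fold. The ttr genes form 1 dense band near 0 with a tail of lower DEHP and NP markers, engulfment genes stay within 2-fold, and neuronal and muscle markers have DEHP and NP medians between -0.63 and -0.96.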

How the data were processed

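The authors deposited 1 linear intensity per probe set of the Affymetrix C. elegans Genome array, per the labels. With 2% of probe sets trimmed at either end, each array averages 499.9, so a scaling step preceded the deposit. For the summary method, software and build, the sources used here give no name, and 1 label field names fibroblasts as RNA source, against the others. The 77 control probe sets were set aside. After log2 transformation the arrays were shifted to a common median. For changes, a floor was set at the pooled 25th percentile (28.3), and printed intensities are without it. A total of 20766 probe sets had 1 gene in the platform table, with symbols updated through the RefSeq table (WBcel235), and those assigned to several genes (887) or none (895) were left out. No coordinates are given. The probe set with the highest mean stood for a gene.

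Genes were measured if their mean over the 4 arrays reached the pooled median. Changes were centred on the median measured gene. With 1 array per group no test was made, and precision is limited by the number of arrays. The ttr genes named with values are those 2-fold from the control, the 4 highest and 4 lowest for each chemical, the 5 with the highest mean and those with a known role. Values of other members (extremes, chromosomal neighbours, genes not measured) were chosen after they were seen. Members, lists and rules were chosen with earlier results of these data known. The alternatives were quantile, loess (span 0.3) and deposited scaling, no centring, other filters, no floor, averaged probe sets and no _s_ or _x_ probe sets. The procedure was tested on simulated data. Python 3.11.15, pandas 2.3.3 and statsmodels 0.14.6 were used.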

Additional observations from a re-analysis of the deposited data

How the results depend on the processing

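No paired analysis was possible because each group has 1 array. Without centring, the number of lower ttr genes was 2 for DEHP and 3 for NP, the medians were -0.06 for DEHP over control, 0.19 for NP over control and -0.38 for BPA over NP, 1 gene was 2-fold apart for BPA over NP and 1 for DEHP over NP, and the engulfment median for NP was 0.28. Without the filter on dim genes, over 40 ttr genes, 2 were lower for BPA, 2 for DEHP and 3 for NP and 1 was higher for DEHP. The medians were then -0.05 for DEHP over control, 0.12 for NP over control, 0.01 for BPA over DEHP and -0.31 for BPA over NP, and the engulfment median for NP was 0.23. The numbers 2-fold apart were 5 for BPA over DEHP, 2 for BPA over NP and 3 for DEHP over NP. That setting centres on all genes, dim ones included. No shares of all genes are given for these settings, so their counts cannot be set against the shares in the results. With the filter at the 75th percentile, which leaves 17 ttr genes, 0 were lower for BPA, 2 for DEHP and 3 for NP. That filter includes the control reading, and ttr-31 and ttr-21 pass it only through that reading. With the trend with gene span taken out, 6 genes were 2-fold apart for BPA over NP and 2 for DEHP over NP, and the medians were -0.38 for NP over control, 0.17 for BPA over NP and 0.13 for DEHP over NP. Over the settings run, the ttr medians lay between -0.13 and -0.01 for BPA over control, -0.35 and -0.05 for DEHP over control, -0.38 and 0.19 for NP over control, 0.01 and 0.27 for BPA over DEHP, -0.38 and 0.17 for BPA over NP and -0.31 and 0.13 for DEHP over NP. The engulfment median ranged over -0.17 to 0.03 with BPA, -0.11 to 0.27 with DEHP and -0.2 to 0.28 with NP, so its sign depends on the setting. With the NP array left out of the scaling and the filter, 1 and 4 ttr genes were lower for BPA and DEHP. Over the settings that gave a value (ttr-18 has none without _s_ probe sets, and no NP change has one without the NP array) the change of ttr-31 lay between -2.57 and -2.36 for DEHP and between -2.03 and -1.43 for NP, that of ttr-18 between -1.92 and -1.7 and between -1.86 and -1.33, and that of ttr-23 for BPA between -1.5 and -1.42. In those settings no change of a named ttr gene past 2-fold turned its sign. The dopamine neuron list had 1 measured gene, so its alternatives were not run. The cause of these shifts was not tested beyond the construction of each setting.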

Other observations

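Probe sets assigned to several ttr genes are outside the comparisons above. One had an intensity of 428 for BPA, 234 for DEHP and 456 for NP, against 370 for the control, so that DEHP was the low array. Another had 317 for BPA, 293 for DEHP and 531 for NP, against 393 for the control, with NP the high array. The third lay under the pooled median on all 4 arrays, between 30.4 and 64.9.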
